A study of Mus musculus with 20 samples.

Results

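The 79 genes described here are the chromosome 17 neighbours of Runx2, the gene that was knocked out in these mouse cells. They are the rows of the deposited count tables that lie wholly on chromosome 17 within 5 Mb of either end of Runx2 (positions 39495987 to 49814797, mm10), without Runx2 and Ccnd3, and that reached 10 counts in at least 3 of the 18 libraries. Of 49997 rows in the tables, 180 lie in this window, 178 remain without those 2 genes, and 79 passed the count rule. Another 99 rows fell below it, 49 of them with 0 counts in every library. The members comprise 72 protein-coding genes, 6 long noncoding RNAs and 1 pseudogene. Rcan2, Gm35204 and Capn11 stood just inside the rule with 3 libraries at 10 counts or more, and Tomm6os, with a highest count of 12, stood just outside it with 2.

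Polyadenylated RNA was sequenced from 2 populations of cultured bone marrow cells in 6 groups of 3 libraries. HSC were sorted as lineage-negative cells carrying Kit, Sca1, CD201 and CD150, the surface phenotype of haematopoietic stem cells, and HPC as lineage-negative cells with Kit and Sca1 but without CD201 and CD150, a progenitor phenotype. The groups of each population were homozygous Runx2 knockout (hom), heterozygous Runx2 knockout (het) and wild type (WT). The design text names floxed mice and CRISPR as sources of Runx2 loss, and the labels do not say which applies to a library, which exons were removed, what drove a recombinase, or the animals' age and strain. They also do not say whether the 3 libraries of a group came from separate animals or cultures, so every p-value here reflects variation among libraries that may be purely technical.

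Runx2 is a transcription factor of the RUNX family, known above all as the master regulator of bone formation, and it binds DNA as a partner of CBFB. Genes that lie side by side on a chromosome can share enhancers and chromatin domains, so the level of the neighbours is a usual check when a gene is deleted. The neighbourhood holds genes of general cell upkeep, such as an HSP90 chaperone, ribosome and RNA polymerase components and cullin ubiquitin ligases, beside genes known from signalling, such as Vegfa and the receptors Ptk7 and Tnfrsf21. Supt3, which encodes a subunit of the SAGA coactivator complex, is the only member whose gene body overlaps that of Runx2.

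The libraries held 16663497 to 27061457 counts assigned to genes, and no library stood out as a duplicate of another. Runx2 itself stood at 27.5, 30.4 and 26.7 counts per 1000000 (CPM) in HSC hom libraries, 90.0, 96.0 and 87.6 in HSC het and 126, 133 and 130 in HSC WT. In HPC it stood at 21.9, 20.9 and 23.0 CPM in hom, 98.7, 100 and 92.0 in het and 112, 120 and 119 in WT. Runx2 levels followed the labels in all 18 libraries, with no overlap between genotypes. Of 7 HSC marker genes, 6 were detected and tested in HSC and none was called between hom and WT, with a summed level of 987 to 1490 CPM in hom and 1050 to 1170 CPM in WT. The other one, Ly6a, which encodes Sca1, had 0 counts in every library of both populations. Both populations were sorted as carrying Sca1, so these counts are not read as absence of Ly6a RNA, and their cause was not tested. Markers of other cells also moved in HPC. All 6 neutrophil genes of a marker list and all 5 monocyte genes were called higher in HPC hom than in HPC WT, with summed levels of 2490 to 2650 CPM in hom against 1520 to 1610 CPM in WT for neutrophil genes and 486 to 556 CPM in hom against 240 to 271 CPM in WT for monocyte genes. In HSC, where 4 of the 6 and 4 of the 5 could be tested, none of those tested was called in hom. The other lists gave calls in both directions in HPC hom. Of 6 tested HSC marker genes 1 was called higher and 3 lower, and of 4 mast cell and basophil genes 1 higher and 2 lower. The 1 tested T cell gene and 1 of 3 megakaryocyte genes were called lower, and 0 of 2 tested erythroid genes were called. In bulk RNA, fewer cells of a type and less RNA per cell cannot be told apart, and the part of such shifts in the results for the neighbours was not tested.

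By position, 18 members lie on the lower-coordinate side of Runx2, 60 on the higher-coordinate side, and Supt3 overlaps it (chromosome 17, 44777118 to 45119294, plus strand, mm10, against 44495987 to 44814797 for Runx2 on the minus strand). Within 1 Mb lie 24 of the 79, and 60 lie within 2.5 Mb. The outermost members are Crisp3, 4.25 Mb away on the lower side, and Daam2, 4.64 Mb away on the higher side. The members are unevenly spread, with empty stretches of 1.79 Mb between Mmut and Cd2ap and of 1.59 Mb between Mdfi and Mocs1. Another 37 rows of the window, between 47135374 and 48539709, carry a second copy on a fix contig of the assembly and are not members. They include 6 of the 7 receptors of the TREM list, and 21 of them passed the count rule. The levels of such rows are uncertain because reads can fall on either copy. For 61 members no exon overlaps another annotated gene. For 10 members more than 5% of exon bases do, led by Usp49 (88.1%), Cenpq (60.4%) and Med20 (41.6%), and since strand was not used in counting, the levels of these 10 are uncertain.

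Promoter sequences of 4 members, picked for their calls or their position, are given as examples. Supt3 and Mdfi were the calls in HPC hom that held in every repeat of the analysis. Cul9 was 1 of 4 members called in HSC hom, a call lost in 5 of 6 fits that left out 1 library. Clic5 is the nearest member that does not overlap Runx2 and was called in HPC. Each is the 250 bases before and 50 after the gene's start in RefSeq (GRCm38.p6, the assembly called mm10), 5′ to 3′ on the gene's own strand. Capitals mark matches to TGTGGT or TGCGGT, which are core letters of RUNX binding, or to their reverse complements ACCACA and ACCGCA. The windows lie at chr17:44776916-44777215 (plus strand) for Supt3, inside the gene body of Runx2, at chr17:44188322-44188621 (plus) for Clic5, where the table's start lies inside the gene body of the count tables and not at its outer end, at chr17:46546339-46546638 (minus) for Cul9 and at chr17:47834642-47834941 (minus) for 1 of the 2 starts of Mdfi.
Supt3: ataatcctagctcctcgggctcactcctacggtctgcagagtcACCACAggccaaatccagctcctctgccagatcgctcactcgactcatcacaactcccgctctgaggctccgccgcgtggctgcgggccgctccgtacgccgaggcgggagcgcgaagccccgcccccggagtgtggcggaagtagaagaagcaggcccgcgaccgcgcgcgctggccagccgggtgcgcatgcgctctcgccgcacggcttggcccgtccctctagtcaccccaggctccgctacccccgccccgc
Clic5: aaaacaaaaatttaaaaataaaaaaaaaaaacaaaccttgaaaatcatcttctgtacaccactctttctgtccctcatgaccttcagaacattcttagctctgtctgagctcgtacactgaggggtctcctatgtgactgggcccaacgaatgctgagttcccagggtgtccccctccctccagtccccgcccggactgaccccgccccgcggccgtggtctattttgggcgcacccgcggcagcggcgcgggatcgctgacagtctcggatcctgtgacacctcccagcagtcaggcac
Cul9: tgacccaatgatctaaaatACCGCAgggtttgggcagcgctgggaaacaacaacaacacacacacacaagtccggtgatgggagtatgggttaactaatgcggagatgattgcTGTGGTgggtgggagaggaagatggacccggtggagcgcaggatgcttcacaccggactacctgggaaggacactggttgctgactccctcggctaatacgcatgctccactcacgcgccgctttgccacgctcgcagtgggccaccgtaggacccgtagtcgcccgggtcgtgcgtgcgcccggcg
Mdfi: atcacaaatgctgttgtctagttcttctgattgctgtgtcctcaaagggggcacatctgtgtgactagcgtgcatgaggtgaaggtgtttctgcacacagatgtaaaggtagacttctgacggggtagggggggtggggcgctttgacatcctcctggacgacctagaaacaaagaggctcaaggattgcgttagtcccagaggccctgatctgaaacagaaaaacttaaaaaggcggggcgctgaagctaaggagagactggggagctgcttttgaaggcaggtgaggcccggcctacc

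The Supt3 window holds 1 match, whose first base lies at -207 from the start, and the Cul9 window holds 2, at -231 and -137. Neither the Clic5 window nor either Mdfi window holds one. Of the other members called in HSC hom, the windows of Enpp4 and Pex6 and both windows of Gm41590 hold none. Among members called in other comparisons of genotypes, the windows of Xpo5 and Tbcc hold 1 match each, at 40 and -29. Those of Cd2ap, Ptk7, Cul7 and Med20 hold none. Across the 99 promoter windows found for 72 of the members, 14.1% hold TGTGGT on either strand, against 16.8% of all 32851 windows in the table. For TGCGGT the shares are 11.1% among member windows and 6.45% among all. Either motif occurs in 22.2% of member windows and in 22.4% of all. A match describes the letters only, and none of these windows was tested for binding.

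The members covered a wide range of levels. Per kilobase of exon and averaged over the 18 libraries, the median member stood at 8.17 CPM per kb, against 5.61 for the 15588 rows of the tables that pass the same count rule and 5.04 for the 554 such rows elsewhere on chromosome 17. The higher-coordinate side, with a median of 8.59 CPM per kb, was the more highly transcribed side, and the lower-coordinate side had a median of 1.39. Hsp90ab1, the constitutive HSP90 chaperone, ranked first at 1330 CPM per kb and lies 753.0 kb from Runx2. Rpl7l1, a protein related to ribosomal protein L7 (71.2 CPM per kb), and Polr1c, a subunit shared by RNA polymerases I and III (50.6), followed. Klhdc3, a substrate receptor of a cullin ubiquitin ligase (38.4), and Tomm6, a small subunit of the mitochondrial import pore (34.8), came next, with 11.6% and 31.2% of their exon bases in overlaps.

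None of these 5 most abundant members was called in hom or het cells of either population. Hsp90ab1 had 2890, 2520 and 2470 CPM in HSC hom and 2820, 2600 and 2720 CPM in HSC WT, and its log2 change was -0.05 ± 0.08 (standard error of the fit, as after every log2 change here). In HPC it had 4140, 4140 and 3890 CPM in hom and 4360, 3950 and 3810 CPM in WT, a log2 change of 0.01 ± 0.07. The libraries of hom and WT overlapped in both populations. Rpl7l1 had log2 changes of -0.09 ± 0.08 in HSC hom and -0.05 ± 0.06 in HPC hom, Polr1c of 0.18 ± 0.09 and -0.03 ± 0.07, Klhdc3 of 0.16 ± 0.09 and 0.01 ± 0.07, and Tomm6 of -0.07 ± 0.16 and -0.11 ± 0.11, in that order of populations.

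**Figure D1:**
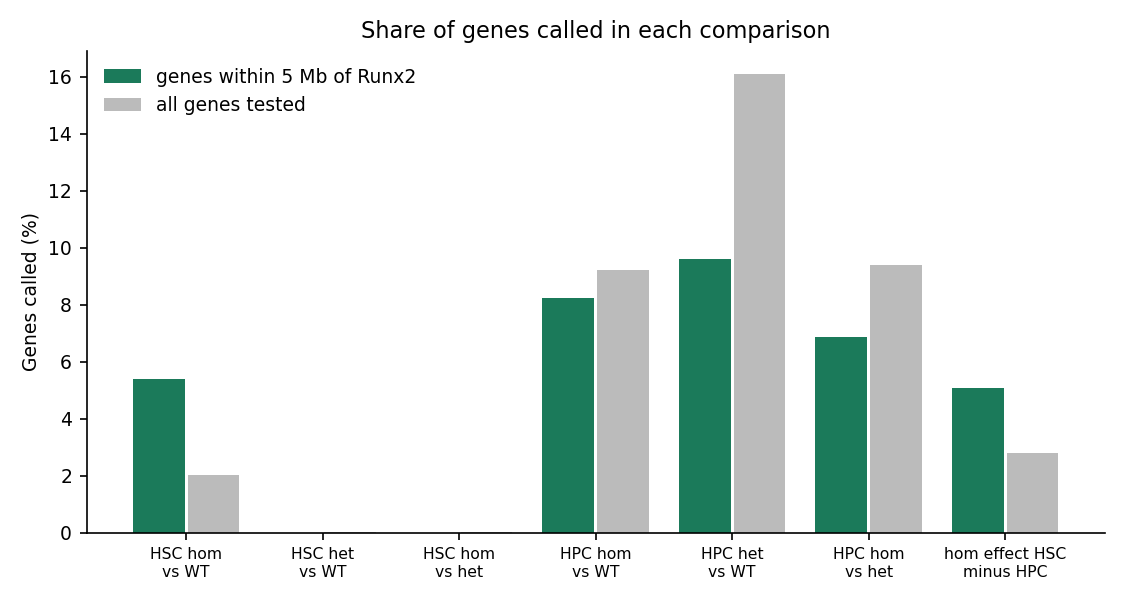
Percentage of genes called at an adjusted p under 0.05 (y axis) in each comparison (x axis), for the members within 5 Mb of Runx2 (green) and for all genes tested (grey). The 2 bars are both under 10% in HPC hom against WT (8.22% of members, 9.21% of all genes), and in HPC het against WT the members' bar (9.59%) is the lower one (16.1% of all genes).

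Few neighbours changed in HSC with homozygous loss of Runx2. Of the 74 members tested, 3 rose (Gm41590, Pex6 and Cul9), 1 fell (Enpp4) and 70 did not pass the test. These calls use the edgeR quasi-likelihood test with Benjamini-Hochberg adjustment over all 14959 genes tested, at an adjusted p under 0.05. The members' share called was 5.41%, against a background of 2.01% of all genes (1.2% higher and 0.802% lower), and 2.06% of the 533 genes tested elsewhere on chromosome 17 were called. The median log2 change of the members was 0.08, against 0 over all genes. For 17 members (23%) the hom and WT libraries did not overlap, a share near the 24.5% among all genes.

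Enpp4, a surface enzyme that cleaves dinucleotides and lies 390.2 kb away on the lower side (chromosome 17, 44096307 to 44105809), was the single member that fell in HSC hom. It had 48.0, 45.3 and 43.9 CPM in hom, 52.1, 57.6 and 50.9 CPM in het and 63.1, 62.2 and 57.4 CPM in WT. Every hom library lay below every het and WT library, and het overlapped with WT. The log2 change of hom against WT was -0.41 ± 0.08 (edgeR adjusted p = 0.0204), leaving 75.1% of the WT level.

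Cul9, a cullin that works in ubiquitin ligase complexes, lies 1.69 Mb away on the higher side (46500609 to 46546388). It stood at 83.5, 97.9 and 98.8 CPM in HSC hom, 94.0, 90.1 and 84.7 CPM in het and 67.4, 74.4 and 77.4 CPM in WT. Hom and het were both above every WT library, with a log2 change of 0.35 ± 0.08 for hom (edgeR adjusted p = 0.0459). Its paralogue Cul7, 1.84 Mb away, had 145, 156 and 162 CPM in hom, 147, 145 and 154 CPM in het and 124, 130 and 134 CPM in WT. These groups did not overlap with WT either, but the log2 change of 0.26 ± 0.07 in hom did not pass the adjustment (edgeR adjusted p = 0.064).

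Pex6, an ATPase needed to import proteins into peroxisomes, lies 1.90 Mb away (46711476 to 46725543). It had 74.6, 77.0 and 63.9 CPM in HSC hom, 68.2, 63.0 and 72.4 CPM in het and 55.9, 52.6 and 58.6 CPM in WT, again with no overlap between WT and either knockout group. The log2 change of hom against WT was 0.37 ± 0.09 (edgeR adjusted p = 0.0471). The largest rise was in Gm41590, a long noncoding RNA 2.72 Mb away with no known role given here. It had 24, 58 and 55 counts in hom, 10, 26 and 5 in het and 5, 6 and 11 in WT, which is 2.28 ± 0.82 CPM in hom and 0.34 ± 0.12 CPM in WT (SD, n = 3 each). Its log2 change was 2.74 ± 0.60 (edgeR adjusted p = 0.0333), and in CPM the hom libraries lay above those of het and WT, which overlapped with each other.

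All 4 HSC calls depended on single libraries. With HSC WT replicate 1, 2 or 3 or HSC hom replicate 2 left out, no member was called, and without hom replicate 1 or 3 there were 5 calls. The calls over all genes moved as well, from 300 with every library. They numbered 76, 48 and 92 without HSC WT replicate 1, 2 and 3, and 71 without HSC hom replicate 2. Without HSC hom replicate 1 and 3 they numbered 592 and 638. Across the 6 such fits the edgeR adjusted p of Enpp4 ran between 0.0111 and 0.109, that of Cul9 between 0.0088 and 0.195, that of Pex6 between 0.00705 and 0.213 and that of Gm41590 between 0.0122 and 0.152. The direction of each stayed the same in all of these fits. The calls of Cul9 and Pex6 were also lost when het was left out of the fit (adjusted p = 0.0734 and 0.0776).

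**Figure D2:**
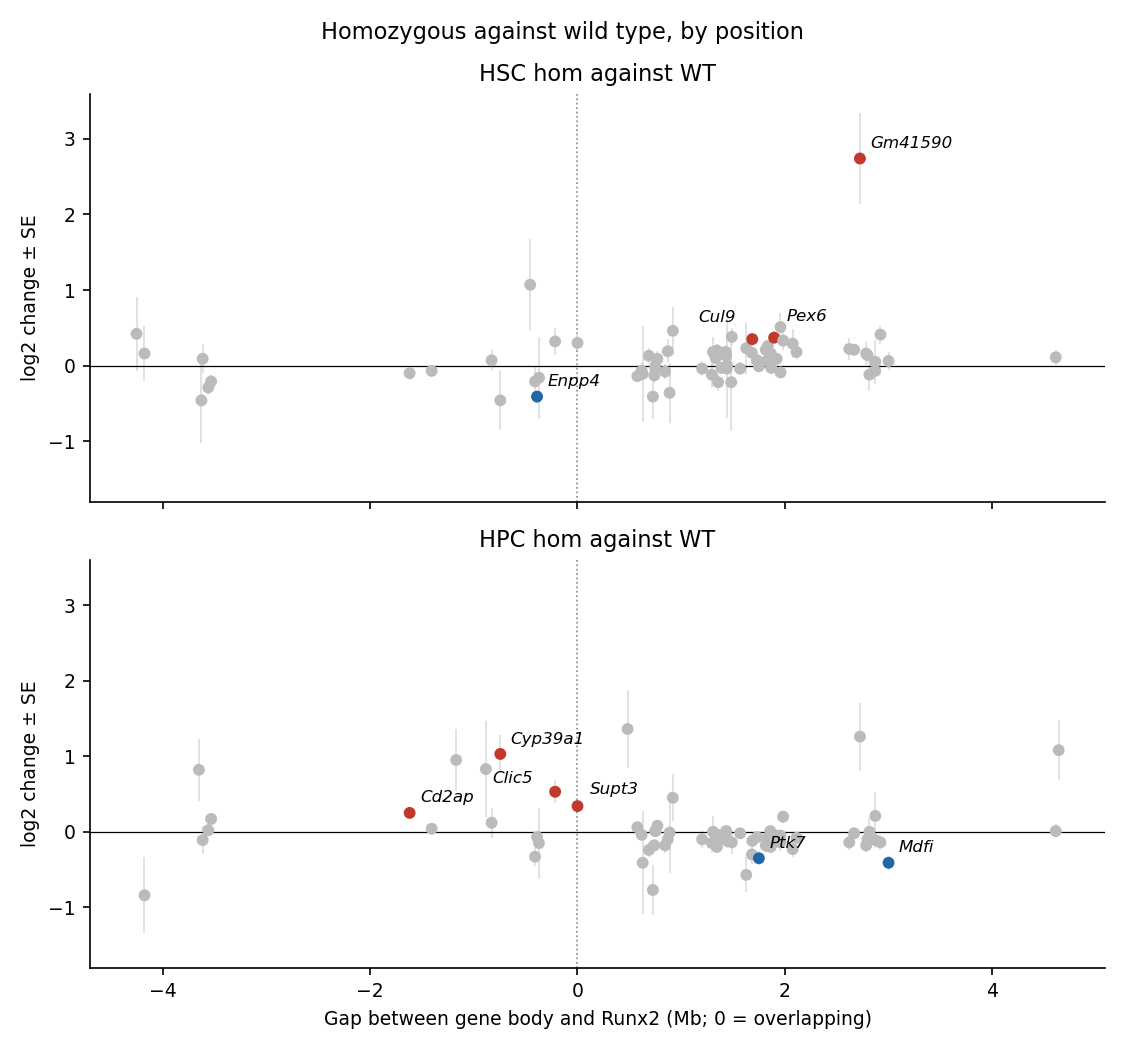
Log2 change of hom against WT (y axis, with standard errors) for each tested member in HSC (top) and HPC (bottom), placed by the gap in Mb between its gene body and Runx2 (x axis, 0 for the overlapping Supt3, negative for the lower-coordinate side). Red points were called higher and blue points lower at an adjusted p under 0.05, and Capn11, with 5 counts in HSC hom, is left out of the HSC panel. Called genes are scattered between 1.62 Mb on the lower side and 3.00 Mb on the higher side, and most grey points lie near 0.

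In HPC with homozygous loss, 6 neighbours were called. Of 73 members tested, 4 rose (Cyp39a1, Clic5, Supt3 and Cd2ap), 2 fell (Mdfi and Ptk7) and 67 did not pass the test. That is 8.22% of the members, against a background of 9.21% of the 13855 genes tested (4.92% higher and 4.29% lower) and 5.97% of the 486 genes tested elsewhere on chromosome 17, so the share called was close to that of all genes. The median log2 change was -0.06 among members and 0 among all genes. Hom and WT libraries did not overlap for 20 members (27.4%), against 26.4% of all genes. Without HPC WT replicate 2 or HPC hom replicate 1, 3 members were called, with 871 and 960 genes called in all, against 1276 with every library.

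Supt3, the SAGA subunit gene that overlaps Runx2, had 33.3, 33.4 and 29.9 CPM in HPC hom, 29.7, 31.2 and 31.9 CPM in het and 26.4, 25.6 and 24.3 CPM in WT. Hom and het lay above every WT library and overlapped with each other. The log2 change was 0.34 ± 0.08 in hom (edgeR adjusted p = 0.00697) and 0.28 ± 0.08 in het (adjusted p = 0.0165). In HSC, Supt3 had 34.8, 37.1 and 40.0 CPM in hom, 35.3, 31.6 and 37.1 CPM in het and 34.9, 28.4 and 27.6 CPM in WT. There WT replicate 1 reached the level of the lowest hom library, and the log2 change in hom of 0.30 ± 0.11 did not pass (edgeR adjusted p = 0.16). The call in HPC hom held with each library left out in turn (adjusted p between 0.0039 and 0.0437).

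Clic5, which encodes a chloride intracellular channel protein tied to the actin cortex, lies 215.8 kb away on the lower side (44134762 to 44280169). It had 16.2, 14.8 and 16.9 CPM in HPC hom, 17.5, 19.6 and 16.0 CPM in het and 7.94, 13.4 and 11.8 CPM in WT. All knockout libraries were above all WT libraries, and WT replicate 1 was the lowest of the 9. The log2 change was 0.53 ± 0.15 in hom (edgeR adjusted p = 0.03) and 0.67 ± 0.15 in het (adjusted p = 0.00442). The call in hom was lost without HPC WT replicate 1 or 3 or HPC hom replicate 1 or 3 (edgeR adjusted p up to 0.113). It was also lost when het was left out of the fit. The call in het held with each library left out (edgeR adjusted p between 0.00127 and 0.0274). In HSC, Clic5 had 14.7, 19.3 and 24.5 CPM in hom and 13.6, 14.1 and 19.0 CPM in WT, overlapping ranges with a log2 change of 0.32 ± 0.18.

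Cyp39a1, an oxysterol hydroxylase of bile acid synthesis 744.6 kb away on the lower side, is weakly transcribed in these cells. It had 2.98, 2.86 and 2.07 CPM in HPC hom, 3.36, 2.47 and 2.19 CPM in het and 1.33, 1.12 and 1.40 CPM in WT, with no overlap between WT and either knockout group. The log2 change was 1.03 ± 0.25 in hom (edgeR adjusted p = 0.0121) and 1.04 ± 0.25 in het (adjusted p = 0.00799). Without HPC WT replicate 2 or HPC hom replicate 1 the call in hom was lost (adjusted p up to 0.0657), and without HPC het replicate 1 that in het (adjusted p = 0.0541). In HSC the same gene had 1.79, 1.33 and 1.45 CPM in hom and 1.96, 1.53 and 2.78 CPM in WT, a log2 change of -0.46 ± 0.39 with overlapping libraries.

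Cd2ap, an adaptor that links CD2 and other receptors to actin, lies 1.62 Mb away on the lower side and had 78.4, 72.5 and 72.8 CPM in HPC hom, 76.6, 70.5 and 66.9 CPM in het and 59.2, 63.1 and 65.2 CPM in WT. Both knockout groups lay above WT. The log2 change in hom was 0.25 ± 0.07 (edgeR adjusted p = 0.0188) and in het 0.19 ± 0.07 (adjusted p = 0.0613), which did not pass. The call in hom was lost without HPC WT replicate 1 or 2 or HPC hom replicate 1 (adjusted p up to 0.101). In HSC, its log2 change in hom was -0.10 ± 0.09.

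The members that fell in HPC hom both lie on the higher side. Mdfi, an inhibitor of MyoD-family transcription factors 3.00 Mb away (47815328 to 47834691), had 29.0, 29.5 and 25.5 CPM in hom, 29.7, 35.6 and 34.1 CPM in het and 37.0, 40.0 and 34.4 CPM in WT. Every hom library lay below every het and WT library, and het overlapped with WT. The log2 change in hom was -0.41 ± 0.09 (edgeR adjusted p = 0.00443), and the call held with each library left out (adjusted p between 0.00539 and 0.0373). In HSC, Mdfi stood at 78.9, 76.7 and 63.3 CPM in hom and 67.8, 66.2 and 76.4 CPM in WT, with a log2 change of 0.06 ± 0.12.

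Ptk7, a receptor-like protein without kinase activity that acts in Wnt and planar polarity signalling, lies 1.75 Mb away. It had 53.0, 51.1 and 43.0 CPM in HPC hom, 63.7, 69.3 and 59.3 CPM in het and 54.7, 68.7 and 63.8 CPM in WT. Hom lay below both other groups, which overlapped with each other. The log2 change of hom against WT was -0.35 ± 0.09 (edgeR adjusted p = 0.0212). Leaving out HPC WT replicate 2 or 3 or HPC hom replicate 3 ended the call (adjusted p up to 0.124). In HSC the log2 change of Ptk7 was -0.01 ± 0.07, with 84.8, 86.7 and 83.3 CPM in hom and 86.3, 83.2 and 87.8 CPM in WT.

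**Figure D3:**
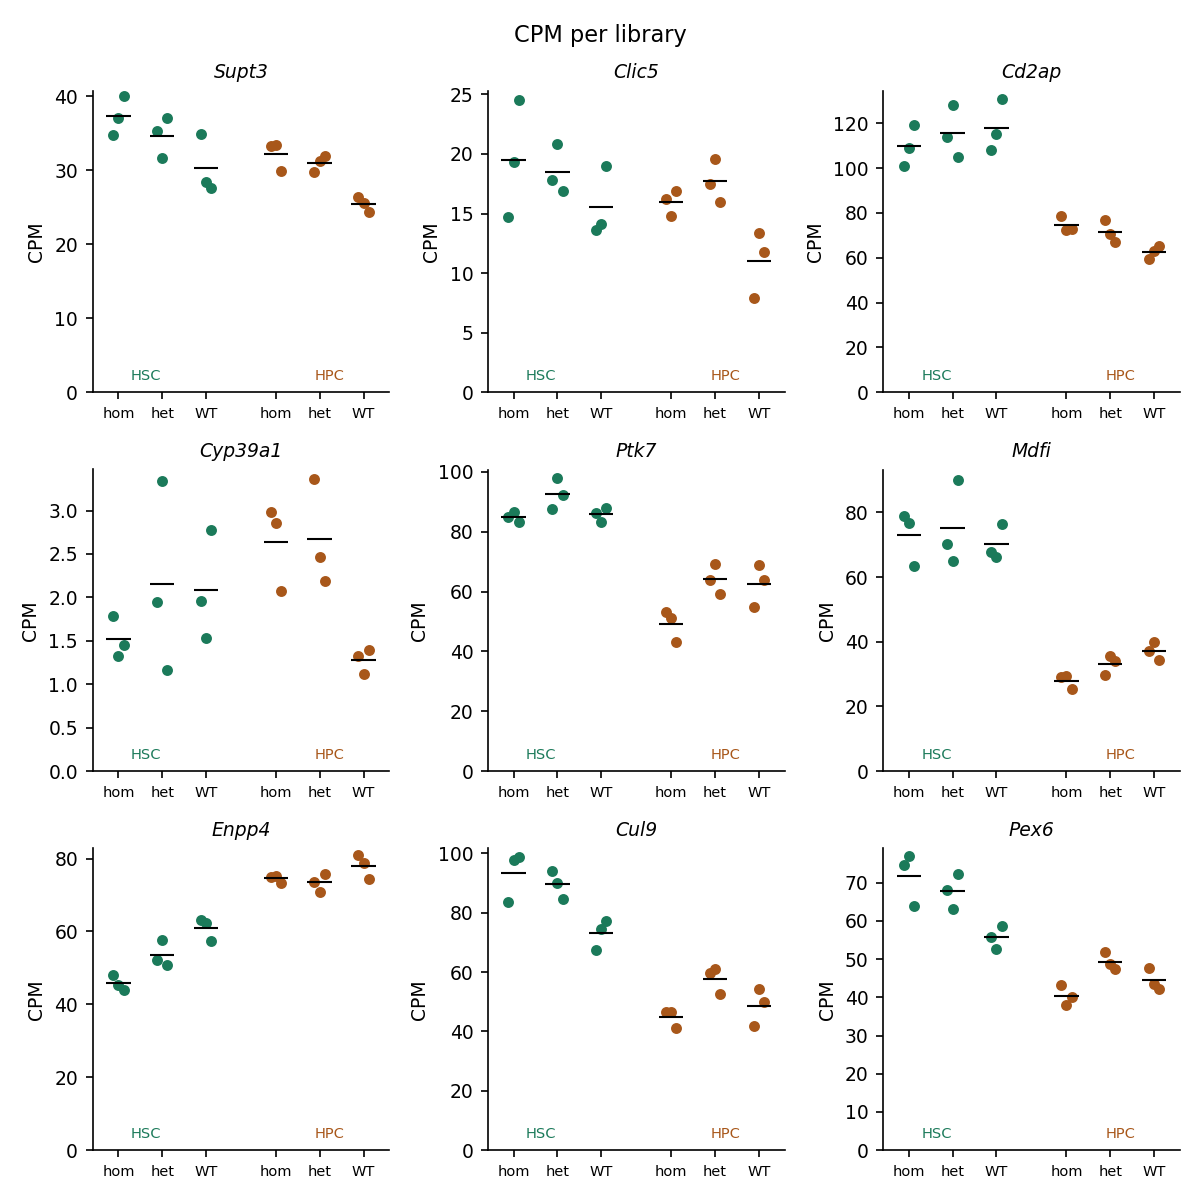
CPM in each of the 18 libraries (y axes start at 0) for the 9 members named on the panels, in hom, het and WT groups of HSC (green, left) and HPC (brown, right). Points are libraries and lines are means of 3. Supt3 and Clic5 in HPC show both knockout groups above WT, and Enpp4 in HSC shows hom below the other groups.

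Other members near Runx2 were not called in hom cells of either population. Enpp5, a relative of Enpp4 at 409.4 kb, had 18.8, 25.4 and 39.4 CPM in HSC hom and 29.7, 34.1 and 32.6 CPM in HSC WT, so hom replicates 1 and 3 lay on either side of WT. In HPC it had 18.3, 18.4 and 12.9 CPM in hom and 18.4, 21.6 and 22.3 CPM in WT, a log2 change of -0.33 ± 0.12 that did not pass (edgeR adjusted p = 0.106). Rcan2, which regulates calcineurin, had 6 to 18 counts per library in HSC hom and 4 to 9 in HSC WT, and was not tested in HPC. The noncoding RNA Gm34917, 371.8 kb away, stood at 0.26 to 0.87 CPM in HSC hom and 0.43 to 0.92 CPM in HSC WT. Gm35204, the nearest member on the higher side at 483.3 kb, had 0 counts in all 9 HSC libraries and was not tested there. In HPC it had 8, 12 and 16 counts in hom, 5, 7 and 13 in het and 8, 5 and 2 in WT. Its HPC hom and WT libraries did not overlap in CPM, but the log2 change of 1.36 ± 0.52 did not pass (edgeR adjusted p = 0.123).

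Next on the higher side, Cdc5l, a core splicing factor at 577.1 kb, had 94.9, 95.4 and 104 CPM in HSC hom and 115, 104 and 104 CPM in HSC WT, and its log2 change of -0.14 ± 0.07 did not pass (edgeR adjusted p = 0.348). In HPC its log2 change was 0.06 ± 0.05. B230354K17Rik, a noncoding RNA, had log2 changes of -0.07 ± 0.10 in HSC hom and -0.04 ± 0.08 in HPC hom. Aars2, the mitochondrial alanyl-tRNA synthetase at 688.7 kb, had 0.13 ± 0.10 in HSC hom and -0.24 ± 0.10 in HPC hom. Neither passed, and the low Spats1 stood at 0.52 to 0.82 CPM in HSC hom and 0.21 to 1.57 CPM in HSC WT. Of the 24 members within 1 Mb of Runx2, 7 on the lower side, 14 on the higher side and Supt3 were tested in each population. Among these, Enpp4 was the only call in HSC hom, beside 2.01% of all genes. Supt3, Clic5 and Cyp39a1 were the calls in HPC hom, beside 9.21% of all genes.

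The sides of Runx2 differed in the sign of their changes, described here without a test. In HPC hom, 10 of 15 tested members on the lower side were above WT (median log2 change 0.12) and 14 of 57 on the higher side (median -0.08). In HSC hom the counts were 6 of 15 on the lower side (median -0.10) and 35 of 58 on the higher side (median 0.09). Of all genes tested, 50% were above WT in HPC hom and 50.4% in HSC hom. The 1 to 2 Mb stretch of the higher side, which holds 31 members, had 20 of 31 tested members above WT in HSC hom (median 0.10) and 4 of 29 in HPC hom (median -0.09). Most of these changes were small, with a median size of 0.16 among the HSC members and 0.14 among the HPC members, against 0.15 and 0.12 among all genes.

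Grouped by role, between 0 and 3 members of a class were called in hom cells of a population, beside 2.01% of all genes in HSC and 9.21% in HPC. The lists were written from general knowledge, each is counted over its tested members, and with so few members no class was tested against all genes. Of 9 genes of transcription and chromatin, none was called in HSC hom, while in HPC hom 1 rose (Supt3), 1 fell (Mdfi) and 7 did not pass. Nfkbie, an inhibitor of NF-kappaB, had log2 changes of -0.13 ± 0.10 in HSC hom and -0.18 ± 0.09 in HPC hom. Of 11 genes of the nucleolus, RNA handling and translation, none was called in hom cells of either population. Their log2 change was above 0 for 7 of 11 in HSC hom (median 0.09) and for 1 of 11 in HPC hom (median -0.09). Mrpl2, a protein of the mitochondrial ribosome, had 0.07 ± 0.12 in HSC hom and -0.09 ± 0.08 in HPC hom.

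Of 7 genes of protein folding and ubiquitin, Cul9 rose in HSC hom and none was called in HPC hom. Cnpy3, a chaperone of Toll-like receptors, had log2 changes of 0.09 ± 0.08 in HSC hom and -0.05 ± 0.07 in HPC hom. Of 8 tested genes of signalling and the cell surface, none was called in HSC hom, and in HPC hom Cd2ap and Clic5 rose and Ptk7 fell. Vegfa, the vascular growth factor 1.20 Mb from Runx2, had 153, 176 and 157 CPM in HSC hom and 154, 177 and 167 CPM in HSC WT. Its log2 change was -0.04 ± 0.10 there and -0.10 ± 0.11 in HPC hom. The death receptor gene Tnfrsf21 had -0.07 ± 0.06 in HSC hom and 0.04 ± 0.06 in HPC hom, and Ppp2r5d, a regulatory subunit of protein phosphatase 2A, had -0.03 ± 0.08 and -0.04 ± 0.07, given in the same order.

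Among 9 tested genes of mitochondria and metabolism, Pex6 rose and Enpp4 fell in HSC hom, and none of 10 was called in HPC hom. The nucleoside transporter Slc29a1 had log2 changes of 0.09 ± 0.10 in HSC hom and 0.08 ± 0.07 in HPC hom. Slc35b2, which carries the sulfate donor into the Golgi, had -0.01 ± 0.09 in HSC hom and 0.01 ± 0.07 in HPC hom. None of the 5 genes of genome upkeep and division was called in hom cells. The mitotic checkpoint silencer Mad2l1bp had 0.10 ± 0.11 in HSC hom and -0.05 ± 0.10 in HPC hom. The translesion polymerase gene Polh had -0.22 ± 0.11 and -0.04 ± 0.08, and the kinesin light chain gene Klc4 had 0.21 ± 0.09 and -0.18 ± 0.09, HSC hom before HPC hom.

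Heterozygous HSC had no call among the 74 members at an adjusted p under 0.05 with edgeR, against a background of 0.0334% of all genes. At an unadjusted p under 0.05 stood 14 members (18.9%), against 13.8% of all genes. DESeq2, which called 192 genes in all, called no member either. The median log2 change was 0.07 among members and 0.01 among all genes, and het and WT libraries did not overlap for 22 members (29.7%), against 23% of all genes. In HPC het, 7 of 73 members were called (9.59%), 4 higher and 3 lower, against a background of 16.1% of all genes (9.15% higher and 6.99% lower). Het and WT libraries did not overlap for 21 members (28.8%), against 33.9% of all genes. Besides Cyp39a1, Clic5 and Supt3, Bicral rose, and Tbcc, Med20 and Xpo5 fell. Markers of other cells moved in HPC het as well. Of the neutrophil genes 4 of 6 were called higher in het (summed level 1880 to 2280 CPM in het, 1520 to 1610 CPM in WT), of the monocyte genes 5 of 5 (463 to 480 CPM in het, 240 to 271 CPM in WT), and all 3 megakaryocyte genes were called lower (217 to 267 CPM in het, 406 to 463 CPM in WT). Of 6 tested HSC marker genes 2 were called higher and 1 lower in HPC het, and of 4 mast cell and basophil genes 1 higher and 2 lower. The 1 tested T cell gene and 1 of 2 tested erythroid genes were called lower. The part of these shifts in the calls of members was not tested. The hom and het comparisons share their WT libraries, so the values of both are given side by side.

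Xpo5, which exports microRNA precursors from the nucleus and lies 1.39 Mb away, had 122, 117 and 113 CPM in HPC hom, 106, 104 and 106 CPM in het and 127, 124 and 121 CPM in WT. Het lay below both other groups. The log2 change was -0.24 ± 0.06 in het (edgeR adjusted p = 0.00624) and -0.08 ± 0.05 in hom. In HSC, Xpo5 stood at 120, 110 and 113 CPM in het and 143, 141 and 132 CPM in WT, also without overlap, but the log2 change of -0.28 ± 0.08 did not pass (edgeR adjusted p = 0.196). Tbcc, a tubulin folding cofactor 2.08 Mb away, had 12.6, 15.1 and 13.6 CPM in HPC hom, 11.5, 12.2 and 12.1 CPM in het and 15.6, 16.6 and 16.2 CPM in WT. Hom and het both lay below WT, and the log2 change of het was -0.43 ± 0.10 (edgeR adjusted p = 0.00513). Both calls held with each library left out.

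Bicral, a subunit of a noncanonical BAF chromatin remodeller, had 86.2, 79.9 and 81.5 CPM in HPC hom, 86.6, 91.0 and 76.3 CPM in het and 64.5, 75.7 and 75.4 CPM in WT. Both knockout groups lay above WT, and the log2 change of het was 0.24 ± 0.08 (edgeR adjusted p = 0.0398). Med20, a Mediator subunit with 41.6% of its exon bases in overlaps, had 29.7, 28.4 and 29.6 CPM in HPC hom, 24.6, 27.0 and 27.1 CPM in het and 30.2, 29.6 and 34.0 CPM in WT. Its log2 change in het was -0.25 ± 0.08 (edgeR adjusted p = 0.0375). The call of Bicral was lost without HPC WT replicate 1 or HPC het replicate 1 or 2, and that of Med20 also without HPC WT replicate 3 (adjusted p up to 0.199 and 0.196). The call of Supt3 in het was lost without HPC WT replicate 3 or HPC het replicate 2 or 3 (adjusted p up to 0.078). Without HPC het replicate 1 or 2 the number of calls in het was 4, with 1604 and 1672 genes called in all, against 2236 with every library.

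**Figure D4:**
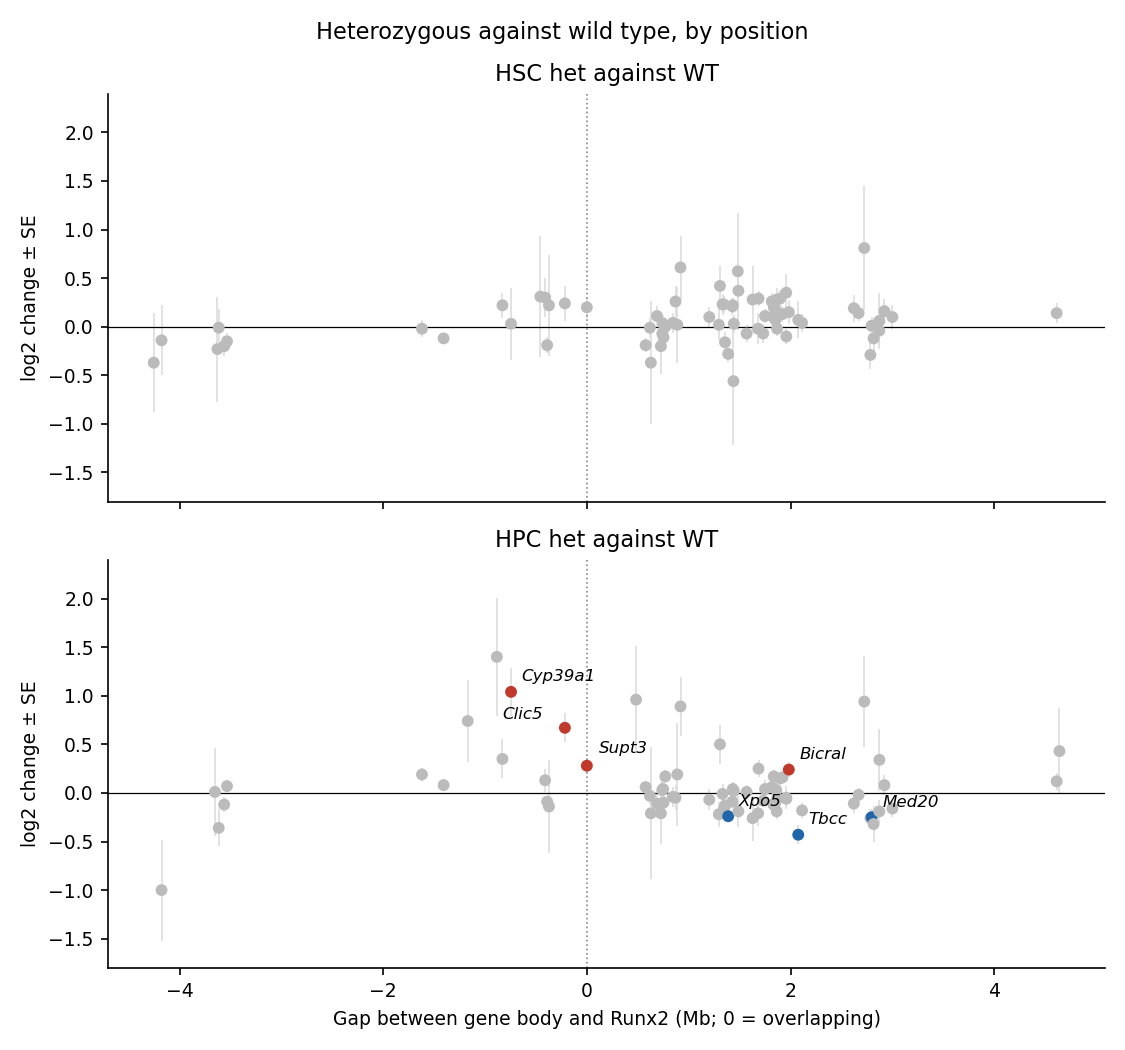
Log2 change of het against WT (y axis, with standard errors) for each tested member in HSC (top) and HPC (bottom), against the gap in Mb between its gene body and Runx2 (x axis, negative for the lower-coordinate side). Red points were called higher and blue points lower at an adjusted p under 0.05, and Capn11 is left out of the HSC panel. No point is called in HSC, and 7 are called in HPC.

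Between the knockout genotypes, 0 of 74 members were called in HSC by edgeR, against a background of 0.0134% of all genes. At an unadjusted p under 0.05 stood 5 members (6.76%), against 11.7% of all genes. Libraries of HSC hom and het did not overlap for 9 members (12.2%), against 16% of all genes. DESeq2 called 150 genes in all and no member. Without HSC hom replicate 3 edgeR called 3 members, with 408 genes called in all, against 2 with every library. In HPC, 5 of 73 were called lower in hom than in het and none higher, against a background of 9.4% of all genes (3.63% higher and 5.77% lower). Their hom and het libraries did not overlap for 16 members (21.9%), against 27.5% of all genes. The members called were Cul7, Ptk7, Cul9, Pex6 and Enpp5. Cul7, which assembles the 3M ubiquitin ligase, had 84.8, 80.1 and 80.8 CPM in HPC hom, 106, 113 and 95.1 CPM in het and 91.3, 97.5 and 90.6 CPM in WT. Hom lay below het and WT, with a log2 change of -0.35 ± 0.07 against het (edgeR adjusted p = 0.00236), a call that held with each library left out.

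Cul9 had 46.6, 46.7 and 41.1 CPM in HPC hom, 59.7, 60.9 and 52.6 CPM in het and 41.7, 54.3 and 49.8 CPM in WT, and its log2 change of hom against het was -0.37 ± 0.09 (edgeR adjusted p = 0.0157). Pex6 had 43.2, 37.9 and 40.0 CPM in hom, 51.9, 48.8 and 47.4 CPM in het and 47.8, 43.4 and 42.2 CPM in WT, with -0.29 ± 0.07 (adjusted p = 0.0183). For both genes the hom and het libraries did not overlap, and WT overlapped with hom and with het. Ptk7 had -0.39 ± 0.09 (edgeR adjusted p = 0.0138) and Enpp5 -0.46 ± 0.12 (adjusted p = 0.0235) against het. With HPC het replicate 2 or HPC hom replicate 3 left out, 1 member was called, with 701 and 797 genes called in all, against 1303 with every library. The calls of Ptk7 and Enpp5 were lost in both fits (adjusted p up to 0.0809 and 0.121). The call of Cul9 was also lost without HPC het replicate 1, and that of Pex6 without HPC het replicate 1 or HPC hom replicate 2 (adjusted p up to 0.0843 and 0.0932).

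The hom effect was then compared between HSC and HPC by an interaction term over all 18 libraries. Of 79 members, 4 differed (5.06%), against a background of 2.79% of 15431 genes (1.06% higher and 1.73% lower) and 2.57% of the 545 genes tested elsewhere on chromosome 17. The hom effect was higher in HSC than in HPC for Pex6 (difference in log2 change 0.49 ± 0.12, edgeR adjusted p = 0.0262) and Cul7 (0.42 ± 0.09, adjusted p = 0.0183). It was lower in HSC than in HPC for Mmut, the mitochondrial methylmalonyl-CoA mutase (-0.41 ± 0.10, edgeR adjusted p = 0.036), and Enpp4 (-0.37 ± 0.09, adjusted p = 0.0367). Mmut, 3.53 Mb away on the lower side, had 51.6, 48.2 and 46.3 CPM in HSC hom against 59.4, 57.5 and 52.4 CPM in HSC WT, and 59.8, 59.7 and 59.1 CPM in HPC hom against 52.7, 53.3 and 52.6 CPM in HPC WT. Hom lay below WT without overlap in HSC and above WT without overlap in HPC. Enpp4 had 75.0, 75.2 and 73.4 CPM in HPC hom and 80.9, 78.7 and 74.4 CPM in HPC WT, a log2 change of -0.07 ± 0.06.

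With 1 library left out at a time the number of such differences ran between 0 and 8. It was 0 without HPC WT replicate 2, HSC WT replicate 1 or HSC hom replicate 2, and 1 or 2 without HPC WT replicate 3, HSC WT replicate 2 or any HPC hom library. Without HSC hom replicate 3 it was 8. Over all genes, 431 differences were called with every library and 941 without HSC hom replicate 3. Without HPC WT replicate 2, HSC WT replicate 1 and HSC hom replicate 2 they numbered 149, 220 and 167. Cell type and donor sex go together in these libraries: the Y-linked gene Ddx3y stood at 121 to 167 CPM in the HSC libraries and 0 in HPC, and Xist at 0 to 1.26 CPM in HSC and 2540 to 4480 CPM in HPC. A difference between the populations and a difference between the sexes cannot be told apart.

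Across the 68 members tested in both populations, 12 were above WT in both, 28 above WT in HSC hom only, 8 above WT in HPC hom only and 20 at or below WT in both. The sign was shared by 47.1% of members, against 50% of 13492 genes tested in both. Pearson's r of the log2 changes was 0.43 over these 68 members and 0.38 over all genes, given as descriptions across genes, which are not independent replicates. Without Gm41590 the r over the other 67 members was -0.04.

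**Figure D5:**
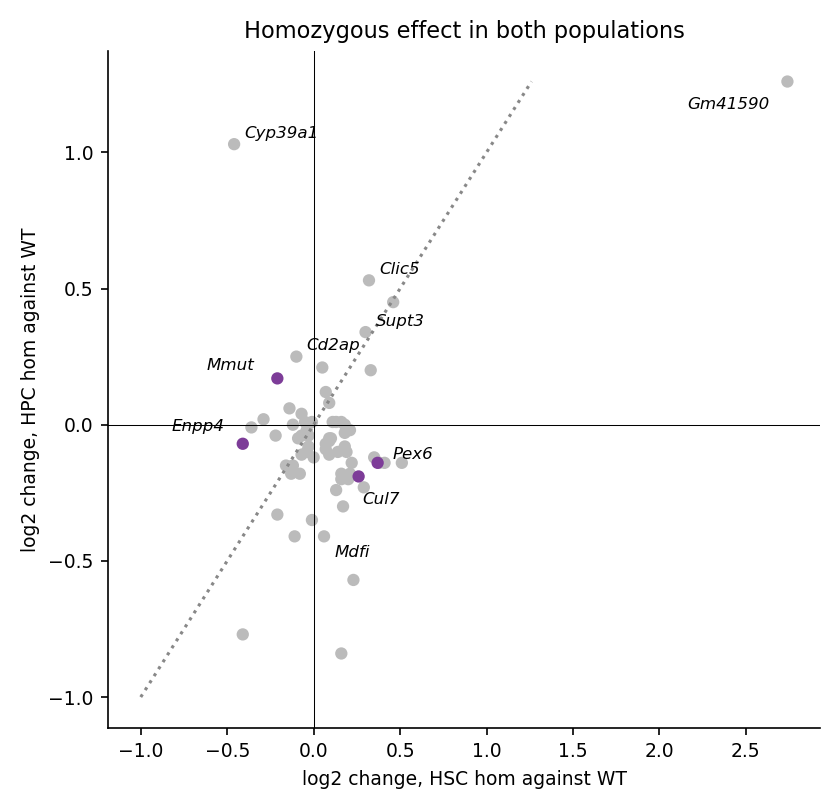
Log2 change of hom against WT in HSC (x axis) and in HPC (y axis) for the 68 members tested in both populations, with a dotted line of equal change. Purple points are the 4 members whose hom effect differed between the populations. Gm41590 stands far to the upper right of the other points, with 2.74 in HSC and 1.26 in HPC.

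Without Runx2 loss, the neighbourhood differed widely between the populations. Of 79 members, 23 were higher and 19 lower in WT HSC than in WT HPC, 53.2% in all, close to the background of 54.9% of all genes (27.7% higher and 27.2% lower) and 52.1% elsewhere on chromosome 17. The largest difference with ample counts was that of Slc25a27, a mitochondrial carrier related to the uncoupling proteins, 828.8 kb from Runx2. It stood at 34.5 ± 1.92 CPM in WT HSC and 12.4 ± 2.88 CPM in WT HPC (SD, n = 3 each), a log2 difference of 1.47 ± 0.18 (edgeR adjusted p = 2.15e-06). Mea1, with 23.9% of its exon bases in overlaps, had 15.1 ± 0.45 CPM in WT HSC and 29.3 ± 1.66 CPM in WT HPC, a log2 difference of -0.96 ± 0.10 (edgeR adjusted p = 5.13e-08).

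The other members with the largest fitted differences are rare transcripts and are given as counts summed over 3 libraries. Gm35204 had 0 counts in WT HSC and 15 in WT HPC. Rhag, a membrane glycoprotein of red cells, had 4 in WT HSC and 38 in WT HPC, and Adgrf1, an adhesion receptor, had 4 in WT HSC and 29 in WT HPC. Rcan2 had 19 in WT HSC and 2 in WT HPC, and Lrrc73 had 42 in WT HSC and 6 in WT HPC. Capn11, a calpain protease gene, had 181, 0 and 118 counts in the WT HSC libraries and 1, 0 and 3 in WT HPC. It also had 0, 5 and 0 counts in HSC hom and 220, 0 and 0 in HSC het, so its total in HSC rested on 3 of 9 libraries.

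By role, the counts are to be read beside 27.7% of all genes higher and 27.2% lower in WT HSC than in WT HPC. Of 11 genes of the nucleolus, RNA handling and translation, 5 were lower (Bysl, Rpl7l1, Polr1c, Rrp36 and Cdc5l), 1 was higher (Aars2) and 5 did not pass. Polr1c had 49.3 ± 2.36 CPM in WT HSC and 80.8 ± 7.80 CPM in WT HPC (log2 difference -0.71 ± 0.08). Of 7 genes of protein folding and ubiquitin, 4 were lower, among them Hsp90ab1 with 2550 ± 99.4 CPM in WT HSC and 4340 ± 334 CPM in WT HPC (-0.77 ± 0.08), and 2, Cul7 and Cul9, were higher. Of 9 genes of signalling and the cell surface, 5 were higher in WT HSC (Cd2ap, Tnfrsf21, Rcan2, Tjap1 and Ptk7) and none was lower. Nfkbie (0.76 ± 0.10), Mdfi (0.72 ± 0.11) and Srf (0.35 ± 0.09) were the higher members among 9 genes of transcription and chromatin, and Bicral (-0.28 ± 0.10) was the lower one. Enpp4, which fell in HSC hom, was also lower in WT HSC than in WT HPC (-0.55 ± 0.07, edgeR adjusted p = 3.21e-07). The calls of Bicral, Bysl, Rrp36, Ptk7, Cnpy3, Rcan2, Lrrc73 and Capn11 in this comparison were each lost in at least 1 fit that left out a library.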

How the data were processed

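RNA libraries of 2 sorted populations and 3 genotypes were used (18 libraries, 3 per group), grouped by their labels. CUT&Tag libraries of the same series were not used here. The deposited values are raw counts per gene in 2 tables of 49997 rows, made per the file headers with featureCounts 2.0.6 from paired reads over exons summed by gene, without strand. Trim Galore 0.6.10 and STAR 2.7.11a are named in the submitters' processing notes, with the mm39 build, whereas the file headers name an mm10 annotation, and the coordinates are those of mm10. The summed exon length that the deposited tables give for each gene served for levels per kilobase.

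The members and the role and marker lists were chosen with earlier results of these data known. Named members are those called in each comparison of knockout with WT (in HPC at most 15 for hom and 10 for het by size) and in the difference between populations, at most 4 higher and 4 lower in WT HSC against WT HPC, the 5 tested members nearest to Runx2 on each side, the 5 with the highest level per kilobase, and up to 3 of each role list. Members called between hom and het fall outside that rule and were chosen after their values were seen, as were the further role members named in the WT comparison.

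Genes were tested with edgeR 4.0.16 in R 4.3.3 (quasi-likelihood F test, robust, TMM factors, filterByExpr on the groups), in a fit of 9 libraries per population and a fit of all 18 for comparisons between populations. Adjustment was by Benjamini-Hochberg over all genes tested. CPM were computed from the counts with TMM-scaled library sizes of the same fit. Values after ± are SD of 3 libraries for CPM and standard errors for log2 changes. Of the members, 74 were tested in HSC (not Rhag, Adgrf1, Pla2g7, Gm35204 and Daam2) and 73 in HPC (not Crisp3, Gm20574, Rcan2, Capn11, Lrrc73 and Dlk2). Libraries held 16663497 to 27061457 counts. Tested on simulated data, the fit recovered 68% of 1.5-fold and 95% of 2-fold changes for HSC hom against WT (14796 genes) and 92% and 99% for HPC hom against WT (13765 genes). In each, 6 unchanged genes were called. The simulation gave every gene a common dispersion and changed only genes above a minimum mean count. These shares therefore do not apply to rare members or to changes under 1.5-fold, the size of most member calls between genotypes. Alternatives were DESeq2 1.42.0, RLE size factors, other count filters, only the groups compared, a replicate block, narrower member rules and leaving out each library.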

Additional observations from a re-analysis of the deposited data

Results flagged for a closer look

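The effect of homozygous Runx2 loss on 4 members differed between HSC and HPC by the interaction term of the edgeR fit over all 18 libraries. That is 5.06% of the 79 members, against 2.79% of all genes. The difference in log2 change, HSC minus HPC, was 0.49 for Pex6, 0.42 for Cul7, -0.37 for Enpp4 and -0.41 for Mmut, with edgeR adjusted p between 0.0183 and 0.0367. Pex6 and Cul7 averaged above WT in HSC hom and below WT in HPC hom. Mmut averaged below WT in HSC hom and above WT in HPC hom, and Enpp4 averaged below WT in hom of both populations, with the larger difference in HSC. None of these calls held with each library left out. Of 12 such fits, the call was lost in 7 for Pex6, 3 for Cul7, 8 for Enpp4 and 9 for Mmut. The call of Enpp4 was also lost without a filter on low counts. Donor sex and population cannot be told apart in these libraries.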

How the results depend on the processing

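No call among the members changed direction under any alternative. Of 26 member calls between genotypes or between genotype effects, 22 held in every fit that kept all libraries of the groups compared and 6 also held with each library left out: Supt3 and Mdfi in HPC hom, Clic5, Xpo5 and Tbcc in HPC het, and Cul7 in HPC hom against het. Of the 42 calls in WT HSC against WT HPC, 31 held throughout. With only the compared groups in the fit, 2 members were called in HSC hom (155 genes in all, against 300 in the main fit). In HSC het that setting called 2 members as well (299 genes in all, against 5 in the main fit). Without a filter on low counts, 4 members were called in HSC hom against het (511 genes in all, against 2 with the filter), 12 in HPC het (2399 against 2236) and 9 in the difference between populations (738 against 431). With 1 library left out at a time, calls ran between 0 and 5 in HSC hom, 0 and 0 in HSC het, 0 and 3 in HSC hom against het, 3 and 7 in HPC hom, 4 and 8 in HPC het, 1 and 6 in HPC hom against het, 0 and 8 for the difference, and 36 and 40 for WT HSC against WT HPC; fewer libraries enter these fits.

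The correlation of deviations between same-numbered libraries ran from -0.21 to 0.21 in HSC, over 0.1 in 2 of 9 pairs, and from -0.12 to 0.28 in HPC, over 0.1 in 4 of 9, so the numbers were not taken as pairs. With the replicate block, 2 members were called in HSC hom (189 genes in all), with Cul9 and Pex6 lost (edgeR adjusted p = 0.0695 and 0.083). Members called, with all genes called in brackets, were 0 (7) in HSC het and 0 (2) in HSC hom against het. They were 6 (1348) in HPC hom, 9 (2342) in HPC het and 5 (1463) in HPC hom against het. For the difference they were 4 (448), and for the WT comparison 43 (8478). Another alternative, chosen after seeing the data, added to the 79 members the 21 rows with a copy on a fix contig that passed the count rule. It gave 4 calls in HSC hom, 7 in HPC hom and 54 in the WT comparison, against 4, 6 and 42 without them. The shares of all genes called in these comparisons were 2.01%, 9.21% and 54.9%. The count rule applied within each table left 68 members. Counts under 3 per library limit what can be said of the rare transcripts.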
